A study of Mus musculus with 6 samples.

Results

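The 7 genes described here, Ppbp, Itga2b, Gp9, Gp1bb, Treml1, Gp6 and Tubb1, are known for high and largely restricted expression in megakaryocytes and platelets. They were chosen by symbol, with earlier results of these data known. Each matched 1 row among the 53465 genes of a count matrix of brain endothelial cell RNA. The PTZ group had received an injection of pentylenetetrazol (PTZ), which blocks GABA-A receptors and causes seizures, and the PBS group one of phosphate-buffered saline (PBS). Each group held 3 libraries, numbered 1, 2 and 4. Both groups consisted of male mice, 8 to 12 weeks of age, with the same alleles, tie2-Cre, ai9 and rpl22HA/HA, and RNA was taken from whole cortex. Expression of tie2-Cre covers the endothelium but also a share of blood cells, ai9 is a fluorescent reporter switched on by Cre, and rpl22HA places a tag on a ribosomal protein in the same cells. The series title speaks of a translatome, while the label of each library gives total RNA. The labels give no dose, time after injection, perfusion of the vessels or step of isolation. They also do not say whether each library is a separate animal, so p-values here reflect only how far these libraries vary, which may be technical.

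Platelets are cell fragments without a nucleus that megakaryocytes shed into the blood, and they keep messenger RNA made in the megakaryocyte. They stick to a damaged vessel wall through receptors for von Willebrand factor and collagen, then bind one another through an integrin and release stored granules. In brain tissue they are found inside vessels, and reads of their genes in a preparation of brain endothelium can come from blood left in the vessels or from blood cells that carry Cre. In bulk RNA fewer cells of a type and less RNA per cell cannot be told apart.

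The start regions of 4 of the genes are shown first. Ppbp and Itga2b carried most of the reads, and Gp9 and Gp1bb encode subunits of the same receptor. The sequences are from RefSeq (GRCm38.p6), 250 bases before to 50 bases after the annotated start, on the strand of the gene. Capitals mark the words GATAA and GATAG, the core bound by GATA factors such as GATA1, and GGAAG, a core of ETS factors such as FLI1, on either strand. No match of the GATA words overlapped one of GGAAG in these regions.
Ppbp, chr5:90768268-90768567, plus strand: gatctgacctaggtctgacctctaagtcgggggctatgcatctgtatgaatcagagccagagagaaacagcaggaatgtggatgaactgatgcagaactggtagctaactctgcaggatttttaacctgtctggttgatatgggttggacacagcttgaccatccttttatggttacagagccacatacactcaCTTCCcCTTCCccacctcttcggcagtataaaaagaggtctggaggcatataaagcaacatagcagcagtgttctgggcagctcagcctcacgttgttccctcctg
Itga2b, chr11:102469834-102470133, minus strand: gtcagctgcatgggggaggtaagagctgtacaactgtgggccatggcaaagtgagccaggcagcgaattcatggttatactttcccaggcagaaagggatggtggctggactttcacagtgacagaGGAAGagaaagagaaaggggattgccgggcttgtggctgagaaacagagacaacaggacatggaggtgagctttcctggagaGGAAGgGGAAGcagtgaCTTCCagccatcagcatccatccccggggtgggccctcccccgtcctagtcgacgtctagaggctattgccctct
Gp9, chr6:87777820-87778119, plus strand: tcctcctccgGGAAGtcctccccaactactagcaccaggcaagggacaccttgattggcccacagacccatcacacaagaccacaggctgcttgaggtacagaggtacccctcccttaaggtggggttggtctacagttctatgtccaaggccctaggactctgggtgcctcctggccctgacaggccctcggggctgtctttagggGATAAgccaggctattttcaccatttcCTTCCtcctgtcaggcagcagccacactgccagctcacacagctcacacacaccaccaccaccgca
Gp1bb, chr16:18622354-18622653, minus strand: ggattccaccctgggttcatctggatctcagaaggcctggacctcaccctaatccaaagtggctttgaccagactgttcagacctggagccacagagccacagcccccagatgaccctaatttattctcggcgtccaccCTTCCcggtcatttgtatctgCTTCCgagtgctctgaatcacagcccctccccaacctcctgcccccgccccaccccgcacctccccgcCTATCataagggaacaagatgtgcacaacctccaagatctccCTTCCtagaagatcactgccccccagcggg
All 7 genes had an entry in the table. In Itga2b, 3 matches of GGAAG lay within the 42 bases before the RefSeq start. In the GENCODE M21 annotation Itga2b starts further upstream, at 102470122, so these matches lie inside its GENCODE span. Ppbp had a pair of GGAAG matches starting 56 and 50 bases before its start. Gp9 had GATAA starting 43 bases before its start, and Gp1bb had GATAG on the opposite strand starting 22 bases before it. A GATA word was found in 4 of the 7 regions (Gp9, Gp1bb, Treml1 and Gp6), against 41.6% of the 32851 start regions of this length in the table. GGAAG was found in all 7, against 71.4%. These words are short and common, and a match is a description of the letters only.

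Together the 7 genes gave 9461 reads. Library totals ran from 11107481 to 15406967 reads, and PTZ library 1 stood apart in the share of reads in no gene, at 9.34% against 2.99% to 5.19% in the other 5. Levels are given in CPM, the read count relative to library size after TMM scaling. The mean of each gene was lower in PTZ than in PBS, and no gene passed the test. Of the 7 genes, all of which had enough reads to be tested, 0 were called in edgeR's quasi-likelihood test at an adjusted p under 0.05, where 0% of the 13768 genes tested were called. At an unadjusted p under 0.05 stood 0 of the 7, against 7.21% of all genes tested (3.38% lower and 3.83% higher in PTZ). DESeq2 called 0 of the 7 at an adjusted p under 0.05, against 0.552% of genes, and limma-voom 0 of the 7, against 0.00726%. The log2 fold change was below 0 for 7 of 7 genes, against 47.3% of all genes, with a median of -0.69 over the 7 and 0.03 over all genes tested. All 7 had 95% intervals that included 0. The 7 genes were measured in the same libraries, so they are not replicates of the condition. Because they were chosen with earlier results of these data known, their shared sign and median are a description and carry no test.

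**Figure D1:**
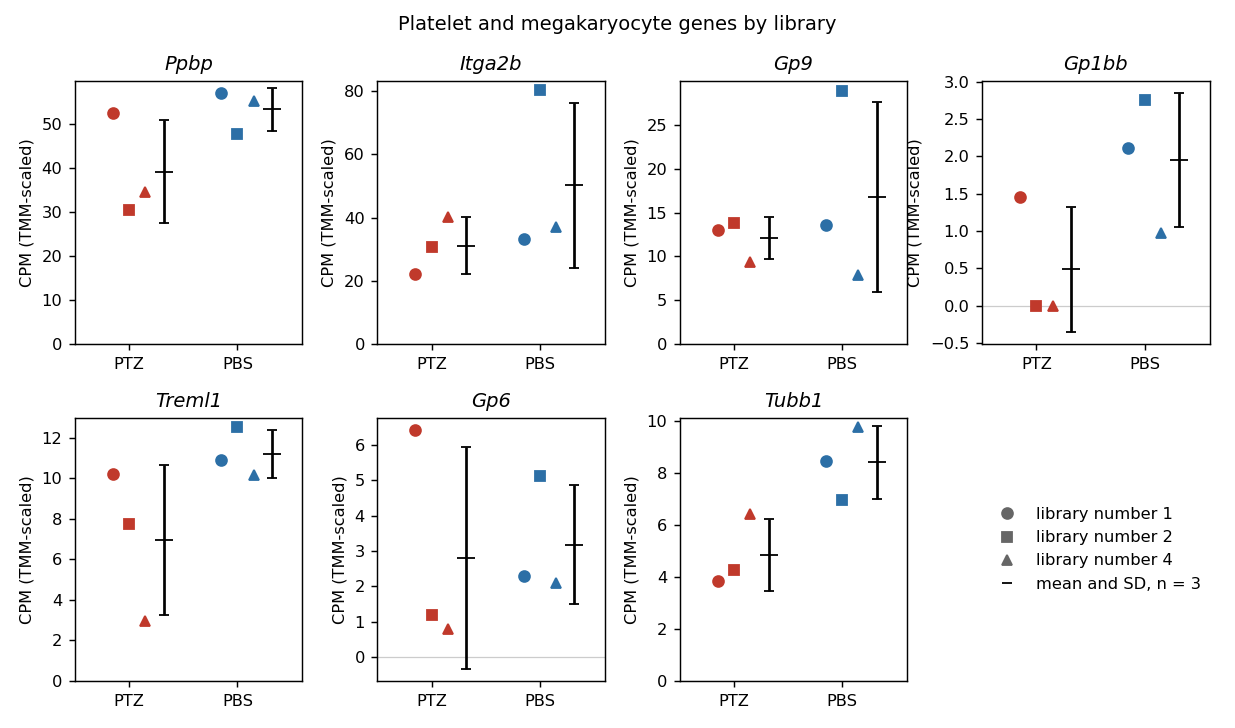
Level of each gene in CPM (TMM-scaled, linear axis) in the PTZ and PBS libraries, with points for single libraries by number and a bar for the mean and SD (n = 3 per group). The Tubb1 libraries of the groups do not overlap, PBS library 2 stands high in Itga2b and Gp9, and Gp1bb is at 0 in PTZ libraries 2 and 4.

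The receptor and granule genes that platelets are best known for differ in abundance, which can be compared only per exon length. Per kilobase of exon (RPKM, CPM divided by the exon length of GENCODE M21 in kilobases) the mean over all 6 libraries was 42.7 for Ppbp, 16.4 for Gp9, 7.45 for Itga2b, 6.47 for Treml1, 4.72 for Tubb1, 0.584 for Gp1bb and 0.507 for Gp6. Ppbp stood above Gp9 and Gp9 above Itga2b in 6 of 6 libraries, though at both steps their ranges over the libraries overlapped. Itga2b and Treml1, like Gp1bb and Gp6, each led in 3 of 6 and did not differ beyond their spread. Treml1 stood above Tubb1 in 5 of 6 libraries, with overlapping ranges. The value of Gp1bb is no fair measure per length, for a reason given with that gene below.

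Ppbp (ENSMUSG00000029372, chromosome 5, 90768518 to 90770063, plus strand, GRCm38) encodes pro-platelet basic protein, which is stored in alpha granules and cut into the neutrophil-attracting chemokine CXCL7. It had 52.4, 30.4 and 34.6 CPM in PTZ libraries 1, 2 and 4, against 57.0, 47.7 and 55.2 CPM in PBS libraries 1, 2 and 4. PTZ library 1 lay between the PBS libraries, while the other PTZ libraries lay below all of them. The mean was 39.1 ± 11.7 CPM in PTZ and 53.3 ± 4.91 CPM in PBS (SD, n = 3 each), with 3712 reads in all. The log2 fold change was -0.45 (SE 0.26, 95% interval -1.02 to 0.13, edgeR adjusted p = 0.735). Ppbp was the member with the narrowest interval, and it was lower in PTZ in all 3 pairs of equal number. Without PTZ library 1 its fold change was -0.71.

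Treml1 (ENSMUSG00000023993, chromosome 17, 48359916 to 48367176, plus strand) encodes a receptor of the alpha granule membrane that moves to the platelet surface on activation. It had 10.2, 7.72 and 2.93 CPM in PTZ libraries 1, 2 and 4, against 10.9, 12.5 and 10.2 CPM in the PBS libraries. The PBS libraries lay close together, PTZ library 4 stood far below them, and PTZ library 1 lay just above PBS library 4 (140 reads and 135 reads). The means were 6.96 ± 3.70 CPM in PTZ and 11.2 ± 1.19 CPM in PBS (SD, n = 3 each), a log2 fold change of -0.69 (SE 0.51, edgeR adjusted p = 0.790). Without PTZ library 4 the fold change was -0.32, and without PTZ library 1 it was -1.08. Under DESeq2 size factors and under the authors' scaling PTZ library 1 lay just below PBS library 4 and the groups did not overlap.

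Itga2b (ENSMUSG00000034664, chromosome 11, 102453297 to 102470122, minus strand) encodes the alpha IIb chain of the fibrinogen receptor, which pairs with the beta 3 chain of Itgb3. It had 22.2, 30.9 and 40.2 CPM in PTZ libraries 1, 2 and 4, against 33.3, 80.3 and 37.0 CPM in the PBS libraries. In CPM, PBS library 2 was above the other PBS libraries added together, and PTZ library 4 lay above PBS libraries 1 and 4. The means were 31.1 ± 9.0 CPM in PTZ and 50.2 ± 26.1 CPM in PBS (SD, n = 3 each), a log2 fold change of -0.69 (SE 0.37, 95% interval -1.51 to 0.13). Its unadjusted p of 0.0909 was the lowest of the 7 in edgeR, with an adjusted p of 0.714. Without PBS library 2 the fold change was -0.21.

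The partner chain had nearly equal means in both groups. Itgb3, which endothelial cells can also express, had 19.3, 26.8 and 15.1 CPM in PTZ libraries 1, 2 and 4, against 14.4, 35.2 and 11.7 CPM in the PBS libraries, a log2 fold change of 0.00 (SE 0.44). PBS library 2 was the highest for both chains. The ratio of Itga2b to Itgb3 in RPKM was 1.24, 1.25 and 2.88 in the PTZ libraries and 2.50, 2.47 and 3.43 in the PBS libraries, with PTZ library 4 inside the range of the PBS libraries. This ratio was not tested.

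Gp9 (ENSMUSG00000030054, chromosome 6, 87778072 to 87779768, plus strand) encodes glycoprotein IX, a subunit of the receptor for von Willebrand factor that also holds the products of Gp1ba, Gp1bb and Gp5. It had 12.99, 13.9 and 9.42 CPM in PTZ libraries 1, 2 and 4, against 13.6, 28.8 and 7.84 CPM in the PBS libraries. All PTZ libraries lay within the range of the PBS libraries, and PBS library 2 was again the highest. The means were 12.1 ± 2.35 CPM in PTZ and 16.7 ± 10.9 CPM in PBS (SD, n = 3 each), a log2 fold change of -0.47 (SE 0.47, edgeR adjusted p = 0.858). Without PBS library 2 its sign turned, to 0.14.

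Gp1bb (ENSMUSG00000050761, chromosome 16, 18620317 to 18622403, minus strand) encodes glycoprotein Ib beta of the same receptor. It had 20, 0 and 0 reads in PTZ libraries 1, 2 and 4, against 34, 28 and 13 reads in the PBS libraries, or 1.46, 0 and 0 CPM against 2.12, 2.76 and 0.979 CPM. PTZ library 1 lay inside the range of the PBS libraries, and PTZ libraries 2 and 4 were at 0. The exact 95% intervals of those counts reach up to 0.316 and 0.239 CPM, relative to library totals without TMM scaling (counting error only). The log2 fold change was -1.97 (SE 1.46, 95% interval -5.20 to 1.27, edgeR adjusted p = 0.788). It was -3.64 with the library number as a block, with an adjusted p of 0.469, and -3.76 in limma-voom, so its size depends on the fit.

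The gene shares its place with a neighbour. Of the 2087 exon bases of Gp1bb in GENCODE M21, 1902 are also exon bases of Sept5, a septin gene on the same strand, and only 149 belong to no other gene. The deposited matrix has a summary row of ambiguous reads, those that fell in more than 1 gene and were set aside, and they made up 5.59% to 7.65% of each library. How many of them fell in Gp1bb is unknown, since the annotation release of the counts is not stated in the labels. Sept5 had 44, 41 and 48 reads in PTZ libraries 1, 2 and 4, against 43, 39 and 47 reads in the PBS libraries. Gm49601, which shares 867 of the bases, has no row in the matrix. Of the other 6 genes, none shared an exon base with another gene, and Gp6 was the exception in sequence, with 0.458% of its 50-base words also found in transcripts of other genes. Within the span of Itga2b lies Gm23563, with 1 or 2 reads in each library, and within that of Gp6 lie Gm25349 and Gm24752, with 0 reads.

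The other genes of this receptor were low and differed in sign. Gp1ba, the subunit that binds von Willebrand factor, had 2.77, 5.34 and 0.998 CPM in PTZ libraries 1, 2 and 4, against 0.809, 0.984 and 1.05 CPM in the PBS libraries. PTZ libraries 1 and 2 lay above all PBS libraries and PTZ library 4 among them, and the log2 fold change of 1.66 (SE 0.88, edgeR adjusted p = 0.710) had the opposite sign to those of Gp9 and Gp1bb. Gp5 had 2.04, 4.85 and 3.12 CPM in PTZ, against 4.30, 8.96 and 0.829 CPM in PBS, and its groups overlapped (log2 fold change -0.49, SE 0.84).

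Gp6 (ENSMUSG00000078810, chromosome 7, 4363965 to 4397744, minus strand) encodes the collagen receptor glycoprotein VI, which signals through the Fc receptor gamma chain of Fcer1g. It had 6.42, 1.19 and 0.811 CPM in PTZ libraries 1, 2 and 4, against 2.30, 5.12 and 2.11 CPM in the PBS libraries. PTZ library 1, with 88 reads, stood above every other library, and PTZ libraries 2 and 4, with 12 and 13 reads, stood lowest. The means were 2.81 ± 3.14 CPM in PTZ and 3.18 ± 1.68 CPM in PBS (SD, n = 3 each). The log2 fold change was -0.17 (SE 0.92, 95% interval -2.20 to 1.86, edgeR adjusted p = 0.980). Without PTZ library 1 the fold change was -1.66, and without PTZ library 2, PTZ library 4 or PBS library 2 it was 0.14, 0.27 and 0.30.

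Tubb1 (ENSMUSG00000016255, chromosome 2, 174450695 to 174457882, plus strand) encodes beta 1 tubulin, which forms the microtubule ring under the platelet's edge. It had 3.87, 4.26 and 6.43 CPM in PTZ libraries 1, 2 and 4, against 8.47, 6.99 and 9.79 CPM in the PBS libraries. All PTZ libraries lay below all PBS libraries, by a narrow margin between PTZ library 4 and PBS library 2. It was the 1 gene of the 7 whose groups did not overlap, while 14.3% of all genes tested had groups apart in either direction and 7.04% lay lower and 7.3% higher in PTZ in this way. The means were 4.85 ± 1.38 CPM in PTZ and 8.42 ± 1.40 CPM in PBS (SD, n = 3 each), a log2 fold change of -0.79 (SE 0.49, 95% interval -1.88 to 0.30, edgeR adjusted p = 0.759). With library totals as the only scaling, PTZ library 4 (6.69 CPM) lay above PBS library 2 (6.39 CPM) and the groups overlapped.

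An exact 2-sided permutation test of the CPM over libraries was run for each of the 7 genes, and 3 against 3 libraries allow no p under 0.1. Tubb1 gave p = 0.1 in this exact test, Ppbp, Gp1bb and Treml1 p = 0.2, Itga2b p = 0.4, Gp9 p = 0.8 and Gp6 p = 0.9. Within pairs of equal library number 4 of the 7 genes (Ppbp, Gp1bb, Treml1 and Tubb1) were lower in PTZ in all 3 pairs, against 16.6% of all genes tested, and the other 3 were lower in 2 of 3. The labels name no pairing and the genes were chosen with earlier results known, so this count is a description and carries no test.

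**Figure D2:**
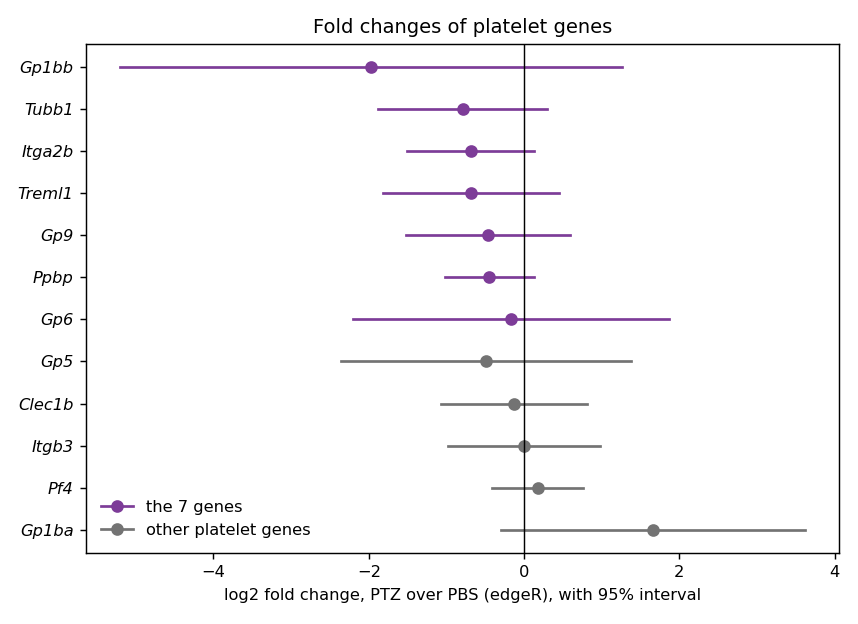
Log2 fold change, PTZ over PBS, from edgeR with a 95% interval derived from its test (lines) for the 7 genes above and for 5 other platelet genes below. The values of the 7 run from -1.97 for Gp1bb to -0.17 for Gp6, those of the others reach 1.66 for Gp1ba, and every line crosses 0.

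**Figure D3:**
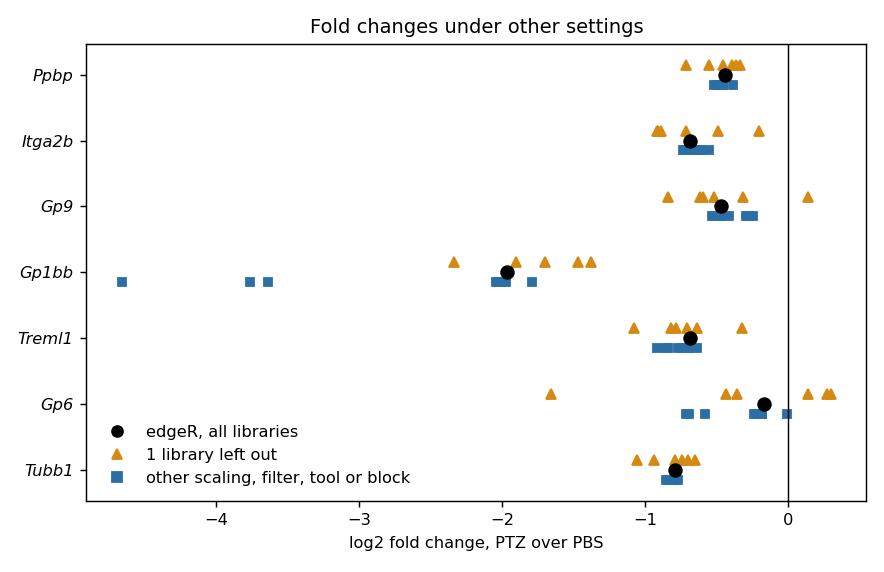
Log2 fold change, PTZ over PBS, of each gene with all libraries in edgeR (circles), with 1 library left out (triangles) and under another scaling, filter, tool or block (squares). Tubb1, Treml1, Itga2b and Ppbp stay left of 0 throughout, Gp9 and Gp6 cross it when single libraries are left out, and Gp1bb runs from -4.66 to -1.38, leaving out the fit without PTZ library 1, in which its remaining PTZ libraries are at 0.

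The sum of the 7 genes was 110, 88.3 and 94.3 CPM in PTZ libraries 1, 2 and 4, against 128, 184 and 123 CPM in PBS libraries 1, 2 and 4. All PTZ libraries lay below all PBS libraries, and PBS library 2 stood far above the rest. The mean was 97.4 ± 10.9 CPM in PTZ and 145 ± 34.1 CPM in PBS (SD, n = 3 each), a log2 ratio of -0.57 that carries no test. Without PBS library 2 the ratio was -0.40. With library totals as the only scaling PTZ library 1 (125 CPM) passed PBS library 4 (122 CPM) and the groups overlapped, and so they did when Itga2b was left out of the sum (87.3 CPM in PTZ library 1, 86.1 CPM in PBS library 4). With TMM scaling the groups stayed apart in the sum when any other of the genes was left out.

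The make-up of the sum varied within each group, and the ranges of the groups overlapped. Ppbp gave 47.8%, 34.4% and 36.6% of the reads of the 7 genes in PTZ libraries 1, 2 and 4, against 44.6%, 25.9% and 44.9% in the PBS libraries. Itga2b gave 20.3%, 35.0% and 42.6% in PTZ and 26.1%, 43.6% and 30.0% in PBS. Itga2b and Gp9 were at their highest in PBS library 2, while among the PTZ libraries Ppbp and Gp6 were highest in library 1.

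**Figure D4:**
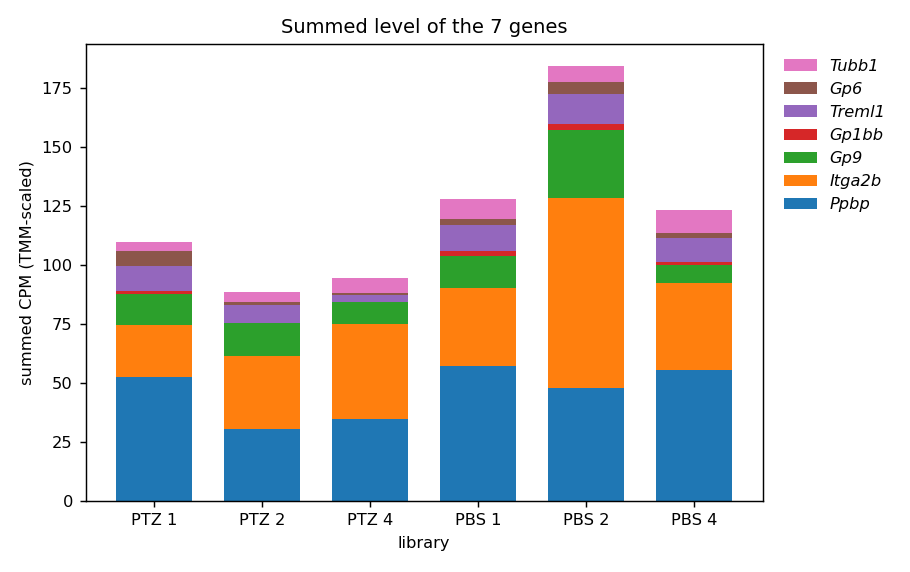
Summed CPM (TMM-scaled) of the 7 genes in each library, stacked by gene from Ppbp at the base to Tubb1 at the top. The PTZ libraries reach 88.3 to 110 CPM and the PBS libraries 123 to 184 CPM, with PBS library 2 high through Itga2b and Gp9.

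Other platelet genes were read from lists by role, and none was called in edgeR with the low-count filter. Over all genes tested 47.3% had a negative value, 3.83% were higher and 3.38% lower in PTZ at an unadjusted p under 0.05, and 14.3% had groups apart, and the counts below stand beside these shares. In a list of 16 genes largely restricted to platelets and megakaryocytes, 13 were tested, 8 had a negative and 5 a positive log2 fold change, and the median was -0.13, nearer to the 0.03 of all genes than the -0.69 of the 7. At an unadjusted p under 0.05 stood 0 of them. Pf4, the gene of platelet factor 4 and the most abundant of the list, had 235, 376 and 256 CPM in PTZ libraries 1, 2 and 4, against 313, 253 and 202 CPM in the PBS libraries. Its groups overlapped, and the log2 fold change was 0.18 (SE 0.26, edgeR adjusted p = 0.911). As background, Pf4 is also made by mouse macrophages at the borders of the brain. The source of its reads was not tested. The ratio of Ppbp to Pf4 in RPKM was 0.148, 0.0538 and 0.0900 in PTZ and 0.121, 0.126 and 0.182 in PBS.

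P2rx1, an ATP-gated channel of platelets, was the 1 of the 13 tested genes of that list with groups apart, against 14.3% of all genes tested: 1.97, 2.47 and 0.374 CPM in PTZ libraries 1, 2 and 4, against 3.36, 4.53 and 7.53 CPM in the PBS libraries (log2 fold change -1.68, SE 0.83, edgeR adjusted p = 0.700). Clec1b, the receptor for podoplanin, had 25.8, 19.1 and 7.61 CPM in PTZ and 19.4, 21.3 and 16.7 CPM in PBS (-0.13, SE 0.42). F2rl2, a thrombin receptor of mouse platelets, had 11, 6 and 40 reads in PTZ against 0, 0 and 13 reads in PBS, with overlapping groups (log2 fold change 1.96, SE 1.47).

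Genes of megakaryocyte transcription ranged from a few reads to abundant. Gata1, the factor that drives megakaryocyte and red cell genes, had 19, 6 and 0 reads in PTZ libraries 1, 2 and 4, against 37, 46 and 11 reads in the PBS libraries. PTZ library 1 lay above PBS library 4, so the groups overlapped (log2 fold change -1.94, SE 1.27, edgeR adjusted p = 0.770). Gfi1b had 1, 3 and 0 reads in PTZ and 0, 1 and 0 in PBS. Of 16 tested transcription genes of the lineage 12 had a positive value, with a median of 0.16, and 1 was higher at an unadjusted p under 0.05. That was Mafk, a small Maf partner of NFE2 that is expressed in many tissues, at 39.9, 46.4 and 38.0 CPM in PTZ against 17.4, 26.7 and 16.7 CPM in PBS, with no overlap (1.03, SE 0.27, edgeR adjusted p = 0.529). Etv6 and Mafg had positive values (0.49 and 0.50) and Gata2 a negative one (-0.33). In this list 3 tested genes were higher and 1 lower in PTZ without overlap of the groups, against 7.3% and 7.04% of all genes tested. Mafk and Etv6 were among the 3 higher genes, and the lower gene was Gata2.

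Lists whose genes many cell types share gave mixed values. Of 16 tested receptor genes 11 were negative and 5 positive (median -0.08), with 0 at an unadjusted p under 0.05. P2ry12, an ADP receptor of platelets that also marks microglia, had 75.4, 22.7 and 66.6 CPM in PTZ libraries 1, 2 and 4, against 103, 56.3 and 162 CPM in the PBS libraries, a log2 fold change of -0.96 (SE 0.46). Of 18 tested granule genes 10 were negative and 8 positive (median -0.05), and at an unadjusted p under 0.05 Rab27a, a GTPase of granule release, stood lower (-0.63, SE 0.21) and Thbs1, the gene of thrombospondin 1, higher (1.69, SE 0.60). The granule transport genes Vipas39 (-0.36) and Vps33b (-0.40) had negative values. Of 19 tested signalling and cytoskeleton genes 13 were positive and 6 negative (median 0.21), and at that p Plcg2 (0.59, SE 0.24) and Plek (0.67, SE 0.27) stood higher and the kinase gene Syk lower (-0.85, SE 0.35). Btk, another kinase gene, had -1.41 (SE 0.64). The groups did not overlap for 3 tested signalling and cytoskeleton genes higher and 3 lower in PTZ. They were apart for 1 tested receptor gene, the P2rx1 already given above, and 1 granule gene, Rab27a, both lower. Over all genes tested 7.3% were higher and 7.04% lower in this way. After adjustment none of the genes of these lists passed in edgeR with the low-count filter. Without that filter Thbs1 was called, and in DESeq2 with the library number as a block, a setting chosen after seeing the data, P2ry12 and Mafk were.

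Markers of other cells were summed over each list. Endothelial markers summed to 8128 to 11685 CPM in PTZ and 7503 to 10124 CPM in PBS (median log2 fold change 0.15 over 12 tested, 9 positive and 3 negative). Red cell genes, globins among them, summed to 6473 to 12223 CPM in PTZ and 7224 to 11527 CPM in PBS, and 8 of 9 tested had a negative value with a median of -0.10. Neutrophil genes summed to 112, 407 and 89.7 CPM in PTZ libraries 1, 2 and 4 and to 602, 530 and 225 CPM in PBS libraries 1, 2 and 4. The sums overlapped, with PTZ library 2 above PBS library 4, and 10 of 11 tested had a negative value (median -0.97). The granule gene Elane had 0 reads in all PTZ libraries and 215, 31 and 37 reads in the PBS libraries (edgeR adjusted p = 0.392). Elane is among the 10 negative genes, but it passed the low-count filter through the PBS libraries alone, so its sign carries no weight. Microglial genes summed to 1784 to 2809 CPM in PTZ and 2705 to 3292 CPM in PBS, and 12 of 12 were negative (median -0.49). Border macrophage genes summed to 968 to 1223 CPM in PTZ and 865 to 1220 CPM in PBS (median -0.03, 10 tested). Lymphocyte genes summed to 68.4 to 115 CPM and 82.2 to 116 CPM in those groups (0.08, 11 tested), monocyte genes to 629 to 900 CPM and 413 to 547 CPM (0.13, 7 tested) and mural cell genes to 336 to 1064 CPM and 198 to 562 CPM (1.15, 9 tested). Of the tested genes 6 of 11, 5 of 7 and 9 of 9 in these lists had a positive value. At an unadjusted p under 0.05 in edgeR 3 neutrophil (Elane among them), 3 microglial and 1 lymphocyte gene stood lower in PTZ. Higher stood 3 mural cell genes and 1 monocyte gene. Over all genes tested the shares were 3.38% lower and 3.83% higher. Neuronal genes summed to 265 to 467 CPM in PTZ and 275 to 457 CPM in PBS (0.11, 8 tested), and mast cell genes to at most 3.46 CPM and 6.35 CPM, with 1 gene tested. Stmn2 alone made up most of the neuronal sums, with a mean of 294 CPM in PTZ and 311 CPM in PBS, and the other neuronal genes were low. The monocyte sums did not overlap, but Fn1, the fibronectin gene, made up most of them. Without it they were 53.9, 95.3 and 66.3 CPM in PTZ libraries 1, 2 and 4 and 77.1, 51.5 and 83.2 CPM in the PBS libraries, which overlapped. Without Pf4 and F13a1, which also stand in the platelet lists, the border macrophage genes summed to 669.9, 790.0 and 639 CPM in PTZ and to 809, 687 and 606 CPM in PBS, again with overlap. The part of these cells in the values of the 7 genes was not tested.

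The genes whose pattern over the 6 libraries was most like the sum of the 7 were found by the root mean square difference of centred log2(CPM + 0.5) values among 12208 protein-coding genes with a mean of at least 1 CPM. They were Lrrc45 (0.0617), the spermine synthase gene Sms (0.0930), Rrnad1 (0.108), Wdr83 (0.112), Rfxank (0.143) and the adhesion molecule gene Ceacam1 (0.147), where the median gene was at 0.539. Lrrc45 had 21.5, 16.9 and 17.3 CPM in PTZ libraries 1, 2 and 4, against 23.3, 38.5 and 24.5 CPM in the PBS libraries. The 7 genes were themselves less like their own sum, from 0.300 for Ppbp and 0.385 for Itga2b to 0.687 for Gp6 and 0.795 for Gp1bb. The 6 genes were picked as the closest of 12208 and the 7 were not, so these differences do not show how far the 7 share a pattern.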

How the data were processed

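RNA-seq of brain endothelial cells was taken from a matrix of raw counts per Ensembl gene, deposited by the authors. Of tools, the list in the submitters' processing notes holds TopHat2 2.1.1, HTSeq, CASAVA and edgeR, and its genome build is GRCm38. The annotation release and strand setting are not stated there. The 5 summary rows, 16.1% to 22.9% of reads, were left out. Files per library, deposited by the authors, hold a signal that is the count divided by 1 factor, used only as another scaling. Symbols and coordinates came from GENCODE M21 (GRCm38). The members and lists were chosen with earlier results of these data known.

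Counts were analysed in R 4.3.3 with edgeR 4.0.16 (filterByExpr with a minimum count of 10 and total of 15, TMM, glmQLFit, glmQLFTest, 2-sided, Benjamini-Hochberg over 13768 genes, threshold 0.05), and with DESeq2 1.42.0 and limma 3.58.1 as alternatives. The SE of an edgeR fold change was derived from that fold change and the F statistic of its test, and the interval from the SE and a t quantile. These intervals are symmetric, which is rough for a gene with few reads such as Gp1bb. The biological coefficient of variation was 0.470. Libraries of a group differed beyond sampling noise (chi-square per degree of freedom 43.8 to 99.1). Deviations from group means correlated at 0.191, 0.238 and 0.246 between libraries of equal number across genes, over 0.1 in each pair. Libraries of equal number were therefore compared, and the number served as a block in another setting. The labels name no pairing, so the edgeR values given for single genes and the permutation test ignore it unless the block is named. Named were the 7 genes, up to 4 genes of smallest p per platelet list, 6 fixed platelet genes, of which 1 is not reported here, and 6 genes of like pattern. Genes named from the marker lists, and the sums without single genes, were chosen after their values were seen.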

Additional observations from a re-analysis of the deposited data

How the results depend on the processing

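In all 14 other settings tried 0 of the 7 genes were called, and Ppbp, Itga2b, Gp1bb, Treml1 and Tubb1 had negative log2 fold changes in each. When 1 library was left out, Gp9 ranged from -0.84 to 0.14 in edgeR (-0.84 to 0.14 as a ratio of mean CPM) and Gp6 from -1.66 to 0.30 (-1.67 to 0.30), and the summed level of the 7 from -0.71 to -0.40. The cause of these turns was not tested. Gp1bb without PTZ replicate 1 has only counts of 0 in PTZ, so its ratio of means has no value there. With the replicate block in edgeR, Gp1bb had -3.64, and the block changed no call of the 7. The adjusted p in that fit ran from 0.469 for Gp1bb and Ppbp to 0.820 for Gp6. Without the block it was 0.735 for Ppbp and 0.714 for Itga2b, and with it 0.469 and 0.482. Over all genes, edgeR called 0 higher and 0 lower in PTZ. Without the low-count filter it called 77 and 44, DESeq2 called 53 and 23, limma-voom 1 and 0, and DESeq2 with the block, chosen after seeing the data, 130 and 77. Leaving out 1 library gave 0 to 8 higher, the 8 without PBS replicate 2. Of the platelet lists, 1 granule gene (Thbs1) was called without the filter, and 1 receptor gene (P2ry12) and 1 transcription gene (Mafk) in DESeq2 with the block. Gp1bb and Gp6 had the fewest reads of the 7, 95 and 230 over all libraries, and Gp1bb has few exon bases of its own.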
